A study of Mus musculus with 12 samples.

Results

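Immunoglobulin A production and its transport across the gut epithelium were followed through 3 genes. Igha encodes the constant part of the IgA heavy chain, Jchain the joining chain, and Pigr the polymeric immunoglobulin receptor. The members were all probe sets annotated to exactly one of these symbols. They came to 6 of 22626 probe sets, or 3 of the 12393 genes measured, with 3 probe sets for Igha, 1 for Jchain and 2 for Pigr.

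The RNA came from epithelial scrapings of the ileum, which is the end of the small intestine, of male mice aged 6 to 8 weeks. POR-null mice lack cytochrome P450 reductase, which passes electrons to the microsomal P450 enzymes, and wild-type C57BL/6 mice were the other genotype. All mice spent 14 days on a soya-free powdered RM3 diet. Then, on day 15, they received it with the plant flavonol quercetin (6.2 g per kg of diet, described as a high dose of 7 mg per mouse) or alone, and tissue was taken after 24 h. The groups were POR-null quercetin, POR-null control, wild-type quercetin and wild-type control. Each group had 3 arrays, each hybridised with the pooled RNA of 3 mice, so the spread between arrays is a spread between pools. Mouse embryos without the reductase in all cells do not survive, so adult POR-null mice carry a deletion limited to some cells, and the labels name neither its tissue nor the promoter that drove it.

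In the gut wall, plasma cells of the lamina propria make IgA, and the J chain links IgA units into a polymer. The polymeric Ig receptor on the basal side of epithelial cells binds the J chain-containing polymer and carries it through the cell. At the luminal face the receptor is cleaved, and its outer part leaves with the antibody as secretory IgA. Igha and Jchain are thus transcripts of immune cells, and Pigr is a transcript of the epithelium itself.

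Igha lies on chromosome 12 (chr12:113256204-113260236, GRCm38.p6) and is annotated as a constant region gene. Jchain lies at chr5:88519809-88527897 on the minus strand. Pigr lies at chr1:130826684-130852249 on the plus strand. Start regions of the receptor and the J chain, from RefSeq's GRCm38.p6 table, are shown because one gene belongs to epithelium and the other to plasma cells. The first covers the 120 bases before the Pigr start (chr1:130826564-130826683), the second the first 24 bases of the Pigr transcript (chr1:130826684-130826707), and the last the 120 bases before the Jchain start (chr5:88527898-88528017). Each is written 5′ to 3′ on the gene's strand. Capitals mark a match to one of the motifs searched.
Pigr, upstream: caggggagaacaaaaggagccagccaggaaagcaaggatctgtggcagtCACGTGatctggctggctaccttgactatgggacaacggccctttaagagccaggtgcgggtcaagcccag
Pigr, transcript start: aaaacagTTTCAGTTTtgacaata
Jchain, upstream: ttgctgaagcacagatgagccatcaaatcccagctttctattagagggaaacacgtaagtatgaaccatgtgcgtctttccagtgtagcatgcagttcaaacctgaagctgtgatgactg

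The motifs were the E-box CACGTG, an interferon regulatory factor type motif TTTCNNTTT, and the octamer ATTTGCAT of immunoglobulin promoters. Each was searched on both strands of a window of 300 bases, from 250 before to 50 after the start. The Pigr window held the E-box at -71 to -66 and the TTTCNNTTT match at 8 to 16 of the transcript. These matches do not overlap each other. In the human receptor gene an E-box bound by USF factors and an interferon regulatory factor element near the start have been described. Over 32851 windows of the same length, 7.15% held CACGTG, 10.6% held TTTCNNTTT and 1.74% held ATTTGCAT. The Jchain window held none of these letters.

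Igha, the IgA heavy chain, had its highest group mean in POR-null quercetin and its lowest in wild-type control. On its representative probe set (1421653_a_at) the log2 levels were 10.91, 10.94 and 11.72 in POR-null quercetin, against 11.08, 10.45 and 10.97 in POR-null control. They were 11.22, 10.66 and 11.10 in wild-type quercetin, against 10.17, 10.08 and 10.73 in wild-type control. POR-null quercetin replicate 3 stood highest, and wild-type control replicates 1 and 2 lowest. Groups that differed in diet alone or in genotype alone overlapped. The means were 11.19 ± 0.46 in POR-null quercetin, 10.83 ± 0.34 in POR-null control, 10.99 ± 0.29 in wild-type quercetin and 10.33 ± 0.35 in wild-type control (SD, n = 3 each). From its lowest to its highest pool Igha spanned 1.64 on the log2 scale, or 3.12-fold. Igha transcript in scrapings depends on how many plasma cells each pool held and on the RNA in each of them, and these cannot be told apart in bulk RNA.

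The other probe sets of Igha gave the same order of groups. On 1425763_x_at the log2 levels were 11.18, 10.96 and 11.81 in POR-null quercetin, against 11.01, 10.49 and 10.89 in POR-null control. They were 11.31, 10.61 and 10.99 in wild-type quercetin, against 10.14, 9.85 and 10.64 in wild-type control. On 1429381_x_at they were 10.72, 10.67 and 11.43 in POR-null quercetin, against 10.66, 9.97 and 10.49 in POR-null control, and here the POR-null diets did not overlap. In wild type the same probe set read 10.89, 10.04 and 10.56 on quercetin and 9.78, 9.71 and 10.31 on control. Probe sets with the suffix x_at may hold probes that match other transcripts, so the x_at readings of Igha may not be independent of other heavy chains. All 3 readings of Igha came from the same pools and are not independent of each other.

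Jchain, which links IgA and IgM units into polymers, had the same order of group means as Igha. Its log2 levels (1424305_at) were 9.32, 9.30 and 10.22 in POR-null quercetin, against 9.40, 8.65 and 9.44 in POR-null control. They were 9.67, 9.06 and 9.69 in wild-type quercetin, against 8.74, 8.72 and 9.43 in wild-type control. The arrays that stood out for Igha stood out here too, with POR-null quercetin replicate 3 the highest. POR-null control replicate 2 was the lowest, and every pair of groups overlapped. The means were 9.61 ± 0.53, 9.16 ± 0.45, 9.47 ± 0.36 and 8.96 ± 0.40 for POR-null quercetin, POR-null control, wild-type quercetin and wild-type control (SD, n = 3 each). Its range over the 12 arrays was 1.57 on the log2 scale, or 2.97-fold.

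Pigr, the epithelial receptor, varied much less between pools. On its representative probe set (1455490_at) the log2 levels were 12.45, 12.45 and 12.46 in POR-null quercetin, against 12.52, 12.46 and 12.50 in POR-null control. They were 12.42, 12.46 and 12.67 in wild-type quercetin, against 12.45, 12.21 and 12.33 in wild-type control. Wild-type control replicate 2 was the lowest pool and wild-type quercetin replicate 3 the highest, and the whole range was 0.46, or 1.38-fold. The means were 12.45 ± 0.01 in POR-null quercetin, 12.49 ± 0.03 in POR-null control, 12.52 ± 0.13 in wild-type quercetin and 12.33 ± 0.12 in wild-type control (SD, n = 3 each). The other Pigr probe set (1450060_at) read 12.03, 12.14 and 11.76 in POR-null quercetin, against 11.98, 12.01 and 12.06 in POR-null control. It read 11.85, 11.92 and 12.14 in wild-type quercetin, against 11.76, 11.29 and 11.86 in wild-type control. Its range was 0.85, or 1.80-fold, wider than on the representative but narrower than those of Igha and Jchain. Both probe sets had their lowest mean in wild-type control, but they disagreed on the order of the other groups, whose means lay within 0.06 of each other. Neighbouring groups in the order of means overlapped for every probe set of the 3 genes.

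**Figure D1:**
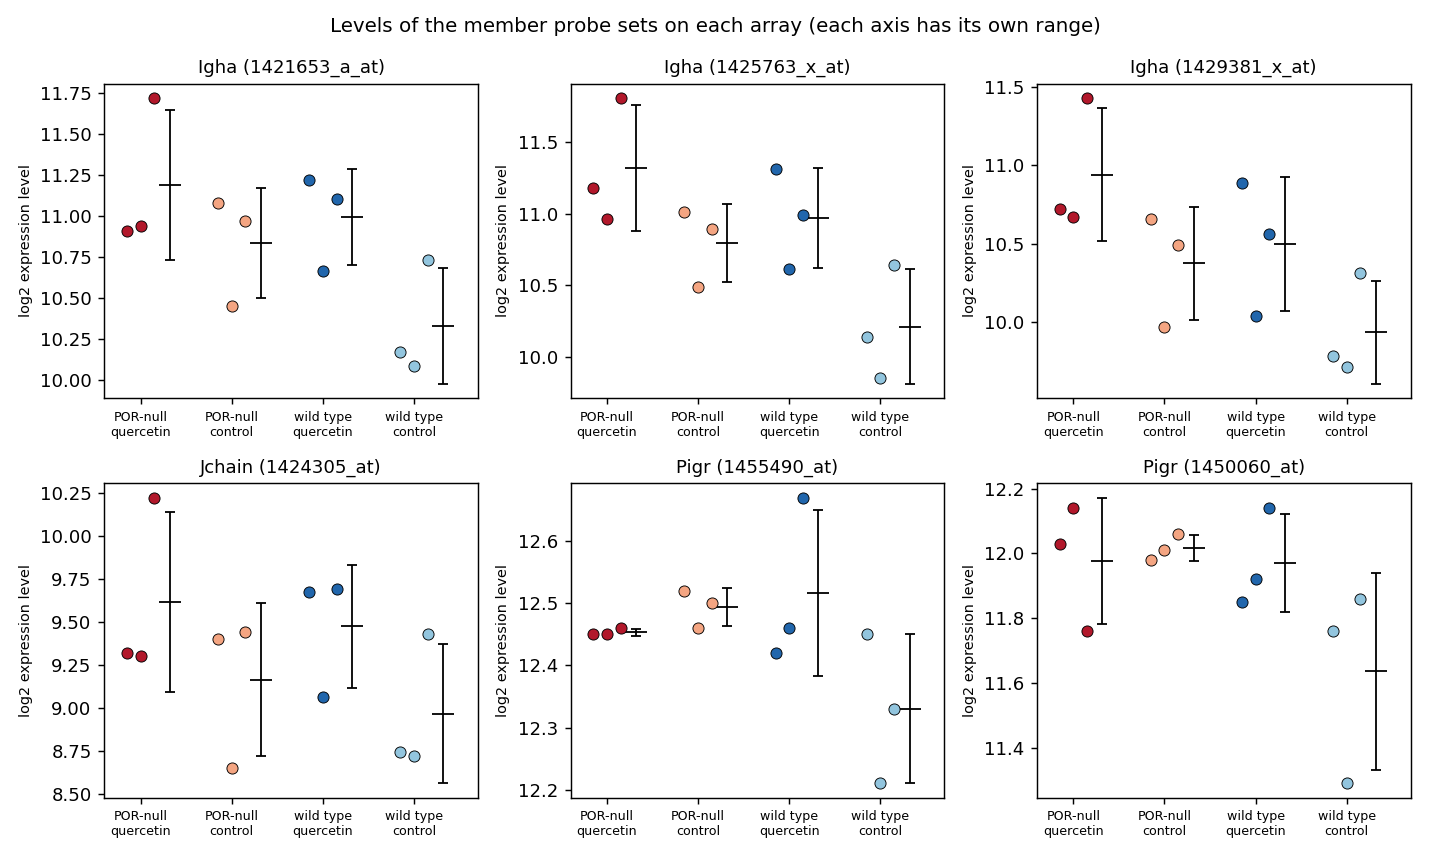
Log2 expression level of each member probe set on the 12 arrays, with groups on the horizontal axis, points for single arrays and bars for the group mean ± SD (n = 3). POR-null quercetin replicate 3 is the highest array for Igha (11.72) and Jchain (10.22), and wild-type control replicate 2 is the lowest for Pigr (12.21); each panel has its own vertical range.

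The first question was whether quercetin in the diet was accompanied by a change of the IgA genes within 24 h in wild-type ileum. All 6 member probe sets had higher means on quercetin than on control, and 0 of them passed limma's test after adjustment over all probe sets. Of all 22626 probe sets, 0.00442% passed, a single one. Igha was higher by 0.67 ± 0.24 on the log2 scale (SE), or 1.59-fold with an interval of 1.12 to 2.26 (limma, adjusted p = 0.346). Its other probe sets differed by 0.76 and 0.56, the second by 0.37 without wild-type quercetin replicate 1. Jchain differed by 0.51 ± 0.28 (limma, adjusted p = 0.532). Pigr differed by 0.19 ± 0.08 on the representative probe set and by 0.33 ± 0.14 on the other (limma, adjusted p = 0.42 and 0.397). Before adjustment, 5 of the 6 had higher values with a p under 0.05, all but Jchain, as did 5.32% of all probe sets. For 0 of the 6 did the quercetin arrays all lie above the control arrays, where 5.33% of all probe sets had such a gap. Those 5 stand for 2 genes, and the probe sets of one gene read the same transcripts.

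In POR-null ileum the corresponding comparison gave higher Igha and Jchain means on quercetin, and Pigr means that barely differed. Igha differed by 0.36 ± 0.24 (log2, SE; limma, adjusted p = 0.829) and Jchain by 0.45 ± 0.28 (limma, adjusted p = 0.81). On 1425763_x_at and 1429381_x_at Igha differed by 0.52 and 0.57. All these values leaned on 1 pool: without POR-null quercetin replicate 3 Igha differed by 0.09, or by 0.27 on 1425763_x_at and 0.32 on 1429381_x_at, and Jchain by 0.15. Both Pigr probe sets differed by -0.04, with intervals of -0.21 to 0.13 on the representative and -0.33 to 0.25 on the other. None of the 6 passed, as was the case for all probe sets (0%), and 2 had higher values with an unadjusted p under 0.05 (3.64% of all). The quercetin arrays all exceeded the control arrays for 1 of the 6, the Igha probe set 1429381_x_at, where 7.45% of all probe sets had such a gap.

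The genotype comparison asked how the IgA genes differed between POR-null and wild-type mice. On the control diet all 6 member probe sets had higher means in POR-null than in wild type, and none passed (0% of all probe sets did). Igha differed by 0.51 ± 0.24 (log2, SE; limma, adjusted p = 0.493), and its other probe sets by 0.59 and 0.44. Jchain differed by 0.20 ± 0.28 (limma, adjusted p = 0.83), with 0.06 without POR-null control replicate 3 and 0.46 without POR-null control replicate 2. Both Pigr probe sets had all POR-null arrays above all wild-type arrays, a gap that 5.15% of all probe sets showed in that direction. Their differences were 0.16 ± 0.08 on the representative and 0.38 ± 0.14 on the other (limma, adjusted p = 0.507 and 0.391). Of the 6, 2 had higher values with an unadjusted p under 0.05, against 4.53% of all probe sets. Wild-type control replicate 2, the lowest Pigr pool, also had the highest mean level of 9 proximal small intestine genes, 9.45 against 7.98 to 8.89 in the other 11 arrays. Without that pool the differences of Pigr were 0.10 and 0.21 between the genotypes on control diet, and 0.13 and 0.16 between quercetin and control in wild type. The representative Pigr probe set differed by 0.11 between the wild-type diets without wild-type quercetin replicate 3, the highest Pigr pool.

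On the quercetin diet Igha was higher in POR-null than in wild type by 0.20 ± 0.24 and Jchain by 0.14 ± 0.28 (log2, SE; limma, adjusted p = 0.894 and 0.948). The other Igha probe sets differed by 0.35 on 1425763_x_at and 0.44 on 1429381_x_at. Without POR-null quercetin replicate 3 the differences were -0.07 for Igha and -0.16 for Jchain, while 1425763_x_at and 1429381_x_at kept positive values of 0.10 and 0.20. Pigr differed by -0.06 ± 0.08 on the representative probe set and by 0.01 ± 0.14 on the other. None of the 6 passed (0% of all probe sets did), and 0 had higher values with an unadjusted p under 0.05 (3.87% of all). For 0 of the 6 did the POR-null arrays all lie above the wild-type arrays (7.28% of all). Smooth muscle and stroma genes differed in level between the same pools: 13 of 13 had higher means in POR-null on both diets, with median differences of 0.41 on quercetin and 0.54 on control, and 0 passed. Their mean level lay between 6.77 and 7.18 in POR-null quercetin and between 6.08 and 6.96 in wild-type quercetin. On the control diet it lay between 6.17 and 7.53 in POR-null and between 5.99 and 6.47 in wild type. The part of such tissue in the Igha and Jchain values was not tested.

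The quercetin effects in the 2 genotypes were also compared directly. The interaction, the quercetin difference in POR-null minus that in wild type, was -0.31 ± 0.33 for Igha and -0.06 ± 0.40 for Jchain (log2, SE; limma, adjusted p = 0.753 and 0.964). On the other Igha probe sets it was -0.24 (1425763_x_at) and 0.00 (1429381_x_at), and the representative value ran from -0.58 without POR-null quercetin replicate 3 to -0.17 without POR-null quercetin replicate 1. For Pigr it was -0.23 ± 0.11 on the representative probe set and -0.37 ± 0.19 on the other (limma, adjusted p = 0.509 and 0.519). The intervals ran from -1.03 to 0.41 for Igha, from -0.91 to 0.79 for Jchain and from -0.47 to 0.02 for Pigr. Of all probe sets, 0% passed for the interaction, and 10.3% had an unadjusted p under 0.05 in either direction, which 0 of the 6 member probe sets had. Averaged over both genotypes, quercetin pools were higher by 0.51 ± 0.17 for Igha, 0.48 ± 0.20 for Jchain and 0.07 ± 0.06 for Pigr (limma, adjusted p = 0.545, 0.636 and 0.841). The Pigr average was 0.035 without wild-type quercetin replicate 3. In this average 4 of the 6 member probe sets, those of Igha and Jchain, had higher values with an unadjusted p under 0.05, where 3.69% of all did, and 0% of all passed after adjustment. Averaged over both diets, POR-null pools were higher by 0.35 ± 0.17 for Igha, 0.17 ± 0.20 for Jchain and 0.05 ± 0.06 for Pigr (limma, adjusted p = 0.708, 0.922 and 0.918). Without POR-null quercetin replicate 3 these averages were 0.22 for Igha and 0.018 for Jchain, and without wild-type control replicate 2 that of Pigr was 0.020. Here 2 of the 6, both x_at readings of Igha, had higher values with an unadjusted p under 0.05, where 3.72% of all did, and 0% of all passed.

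**Figure D2:**
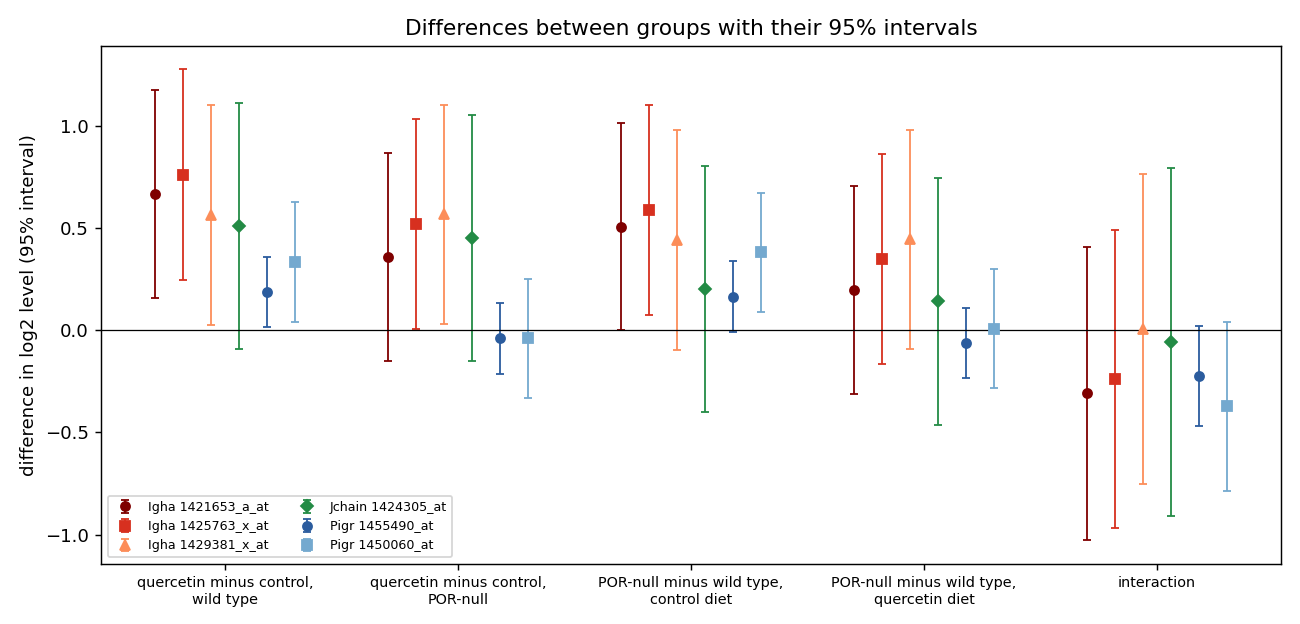
Difference in log2 level for each member probe set (points) with its 95% interval (bars), for the 4 comparisons of a pair of groups and for the interaction. In wild type all 6 quercetin differences are above 0, from 0.19 for Pigr to 0.76 for Igha, while both Pigr values in POR-null are -0.04.

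Igha and Jchain followed each other closely from pool to pool. Over the 12 arrays Pearson's r was 0.95 (permutation p = 2e-05 from 100000 resamples, adjusted p = 6e-05 over 3 pairs). Spearman's rho was 0.91 (permutation p = 0.00014, adjusted p = 0.00042). Without the arrays farthest from the median of Igha, wild-type control replicate 2 and POR-null quercetin replicate 3, r was 0.91. After the group means were taken away r was 0.99, so the shared variation lay also between pools that had the same genotype and diet. Replicate 2 was the lowest array of every group for Jchain and for both x_at readings of Igha. The representative Igha probe set differed from this only in POR-null quercetin, with 10.91 in replicate 1 and 10.94 in replicate 2. A link of these genes to the replicate number was not tested. The coefficients with the receptor were lower. For Igha and Pigr r was 0.49 (permutation p = 0.0983, adjusted p = 0.147) and rho 0.45 (permutation p = 0.148, adjusted p = 0.221), with r = 0.32 without the same arrays and 0.19 for deviations from the group means. For Jchain and Pigr r was 0.39 (permutation p = 0.206, adjusted p = 0.206) and rho 0.33 (permutation p = 0.302, adjusted p = 0.302). Without POR-null quercetin replicate 3 and POR-null control replicate 2 that r was 0.57, and for deviations from the group means it was 0.22. Leaving out wild-type control replicate 2 alone lowered r to 0.21 for Igha with Pigr and to 0.17 for Jchain with Pigr.

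**Figure D3:**
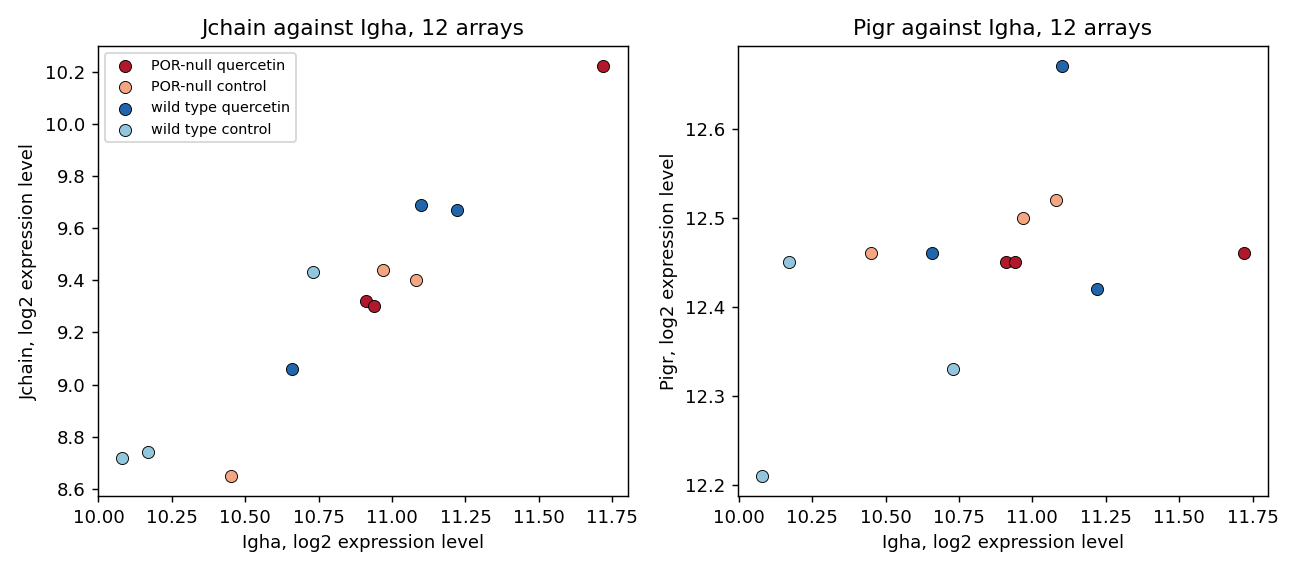
Log2 level of Jchain (left) and Pigr (right) against that of Igha on the 12 arrays, with colours for the groups. Jchain is higher where Igha is higher over the whole range (r = 0.95), while Pigr stays within 12.21 to 12.67 (r = 0.49).

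The genes whose levels were most like those of the members were ranked by Pearson's r over the 12 arrays, as a description. After Jchain, the closest to Igha were the kappa variable gene Igkv8-30 (r = 0.95), Igkv9-120 (0.88), Lyz2 (0.88), which encodes lysozyme of macrophages, and Pex7 (0.85), which encodes a peroxisomal import receptor. For Jchain they were Igha, Igkv8-30 (0.94), Igkv9-120 (0.85), Dnajc10 (0.84), an endoplasmic reticulum disulphide reductase, and Celf2 (0.84), an RNA-binding protein. For Pigr they were the splicing factor gene U2af1 (0.91), Eif3l (0.89), the proglucagon gene Gcg (0.88), Bloc1s5 (0.88) and Sf3a1 (0.88). All these points share the same pools. Igkv8-30 was read by 1452463_x_at, whose suffix marks probes that may match other transcripts. Igkv9-120 was read by its brightest probe set, 1452536_s_at, and its dimmer probe sets were not ranked. Pigr itself ranked 479th of 7309 genes for Igha and 732nd for Jchain.

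Other antibody chains were read by 39 probe sets with a single symbol, of which 20 had mean levels below the lower quartile of all probe sets. Of the 39, 28 had higher means on quercetin in wild type and 29 in POR-null, and 0 passed in any contrast. The median differences were 0.05 and 0.06, against -0.02 and 0.01 over all probe sets. Igkv8-30, a kappa light chain variable gene, had log2 levels of 9.07, 9.07 and 10.01 in POR-null quercetin, against 9.05, 8.68 and 9.16 in POR-null control. It read 9.37, 8.97 and 9.48 in wild-type quercetin, against 8.62, 8.50 and 8.79 in wild-type control, and the wild-type groups did not overlap. Of all probe sets, 5.33% had such a gap. Its quercetin difference was 0.42 ± 0.22 in POR-null and 0.64 ± 0.22 in wild type (log2, SE; limma, adjusted p = 0.77 and 0.33). Without POR-null quercetin replicate 3 the POR-null value was 0.11.

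The IgM heavy chain did not share that pattern on all its probe sets. On 1427329_a_at, the Ighm probe set with the smallest p for quercetin in wild type, the log2 levels were 6.92, 6.73 and 7.14 in POR-null quercetin, against 7.27, 7.08 and 7.67 in POR-null control. They were 7.65, 7.50 and 7.76 in wild-type quercetin, against 6.72, 7.11 and 7.03 in wild-type control. The quercetin difference was thus -0.41 ± 0.15 in POR-null and 0.68 ± 0.15 in wild type (log2, SE; limma, adjusted p = 0.697 and 0.231), and their interaction of -1.09 did not pass (limma, adjusted p = 0.221). The representative Ighm probe set (1427870_x_at) differed by only 0.04 in POR-null and 0.05 in wild type. On 1427351_s_at the Ighm means in POR-null were 7.76 on quercetin and 7.92 on control. In wild type they were 8.19 on quercetin and 8.02 on control. Of 11 B cell genes measured, 2 were higher on quercetin in POR-null (median -0.18) and 7 in wild type (median 0.07). Among those with opposed directions, Cd79a, a B cell receptor subunit, differed by -0.66 in POR-null and 0.35 in wild type, and Ms4a1, which encodes CD20, by -0.42 and 0.50 (log2). Neither the interaction of Cd79a, -1.01 (limma, adjusted p = 0.151), nor that of Ms4a1, -0.92 (limma, adjusted p = 0.351), passed. Pou2af1, a coactivator of B cells and plasma cells, differed by -0.41 in POR-null and 0.39 in wild type.

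**Figure D4:**
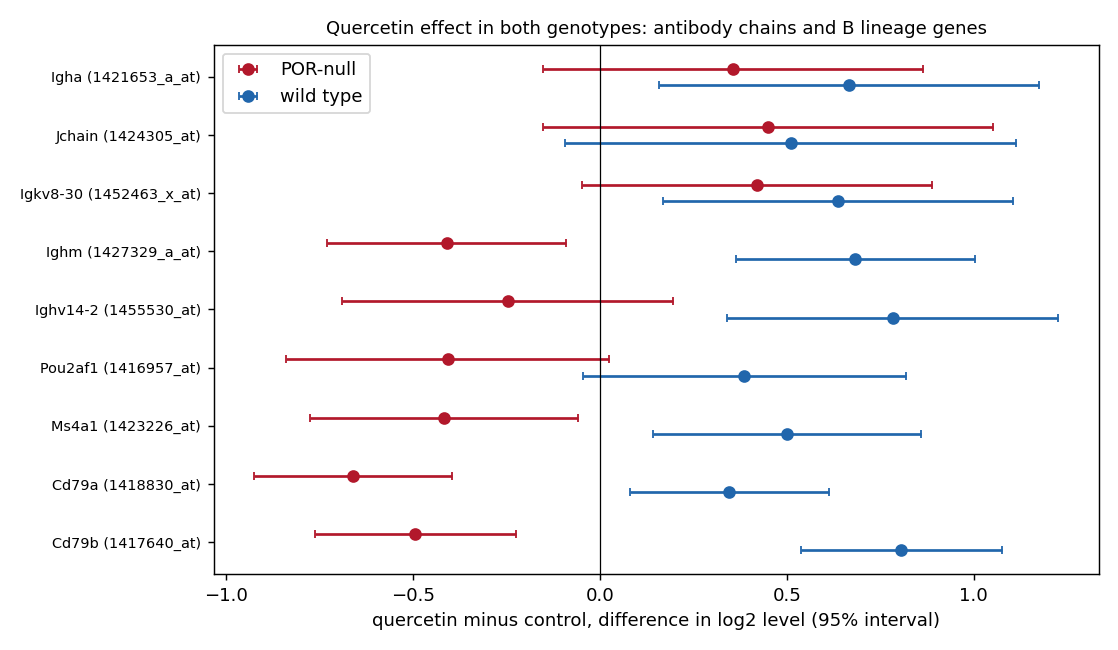
Quercetin minus control difference in log2 level (points) with its 95% interval (bars) in POR-null and in wild type, for antibody chains and B lineage genes. Igha, Jchain and Igkv8-30 are above 0 in both genotypes, while Ighm 1427329_a_at, Cd79a and Ms4a1 are below 0 in POR-null and above 0 in wild type. The genes shown are a selection that favours opposed directions. Of 11 B cell genes measured, 2 were higher on quercetin in POR-null and 7 in wild type. The representative Ighm probe set, which differed little in either genotype, is not shown.

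Plasma cell markers other than the members had similar mean levels in the groups, but most were dim. Of the 8 measured, 3 had mean levels at or above the median of all probe sets and 2 lay below the lower quartile. Of 9 listed genes 8 were measured, and their mean level lay between 6.00 and 6.03 in POR-null quercetin, 5.96 and 6.14 in POR-null control, 6.05 and 6.13 in wild-type quercetin, and 5.88 and 6.17 in wild-type control. Of the 8, 4 were higher on quercetin in POR-null and 5 in wild type, and 0 passed. Sdc1, the syndecan carried by plasma cells and also by gut epithelium, differed by -0.09 ± 0.07 on quercetin in POR-null and by 0.17 ± 0.07 in wild type. Tnfrsf17, the plasma cell survival receptor BCMA, differed by -0.08 ± 0.11 and 0.18 ± 0.11, at a mean level (4.70) below the lower quartile. B cell markers had mean levels of 6.30 to 6.37 in POR-null quercetin, 6.41 to 6.68 in POR-null control, 6.61 to 6.72 in wild-type quercetin and 6.38 to 6.61 in wild-type control. Of 11 B cell genes, 10 were lower in POR-null than in wild type on quercetin, with a median of -0.29. The part of B cell content in the Igha and Jchain values was not tested.

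Genes that steer B cells to IgA made up the first of 5 pathway lists, and 33 of its 36 genes were measured. None passed in either direction in any contrast, a background of 0.00442% for quercetin in wild type and 0% in the others, while 5 of 33 had an unadjusted p under 0.05 for quercetin in wild type, all higher, as did 5.32% of all probe sets in that direction. The median difference there was 0.04, against -0.02 over all probe sets. The genes with the smallest p were Msh6, a mismatch repair gene of the switch machinery (0.33 ± 0.10), and Tgfbr1, the receptor of the IgA switch factor TGF-beta (0.33 ± 0.10). Tgfb1, which encodes that factor, had levels of 5.94, 5.86 and 5.82 in wild-type quercetin, against 5.61, 5.67 and 5.70 in wild-type control, without overlap (0.21 ± 0.08; limma, adjusted p = 0.371). Such a gap was present in 5.33% of all probe sets. In POR-null, Tnfsf13b, which encodes the B cell survival factor BAFF, had levels of 5.86, 6.02 and 5.93 on quercetin, against 6.65, 6.42 and 6.97 on control. This difference of -0.74 ± 0.16 did not pass (limma, adjusted p = 0.415). In wild type Tnfsf13b differed by -0.01 ± 0.16. Il5, a cytokine that supports IgA-secreting cells in mice, was lower by 0.21 in POR-null than in wild type on the control diet (limma, adjusted p = 0.383). The mean level of Il5, 4.51, lay below the lower quartile of all probe sets. Leaving out wild-type control replicate 1 brought Tgfbr1 past the threshold for quercetin in wild type, at 0.47 (limma, adjusted p = 0.041). Averaging the probe sets of Tgfbr1 gave 0.064 (limma, adjusted p = 0.709).

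Genes that bring IgA plasma cells to the gut were all measured, 16 of 16, and 0 passed in any contrast. For quercetin in wild type 11 were higher, with a median of 0.05, and in POR-null 5 were higher, with a median of -0.05 (-0.02 and 0.01 over all probe sets). Ccl25, the small intestinal chemokine that attracts plasma cells through Ccr9, was higher on quercetin in wild type by 0.21 ± 0.07 (log2, SE; limma, adjusted p = 0.318). In POR-null it differed by -0.05 ± 0.07. Ccr9 differed by 0.22 ± 0.10 on quercetin in POR-null and by 0.03 ± 0.10 in wild type. Its mean level of 4.43 lay below the lower quartile of all probe sets. Cxcr5, the B cell follicle receptor, had levels of 4.81, 4.66 and 4.79 in POR-null quercetin, against 5.07, 5.06 and 5.17 in wild-type quercetin, a difference of -0.35 ± 0.07 that did not pass (limma, adjusted p = 0.293).

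Of 24 genes of plasma cell differentiation and antibody secretion 22 were measured, 0 passed in any contrast, and 9 of them were higher on quercetin in wild type and 12 in POR-null. Their medians were 0.02 in POR-null and -0.01 in wild type, and Pou2af1, given above, is one of them. Ssr4, a subunit of the complex that helps proteins into the endoplasmic reticulum, differed by 0.17 ± 0.08 on quercetin in wild type. Fkbp11, a secretory pathway protein folding gene, differed by 0.18 ± 0.09 on quercetin in POR-null. The mean level of the list lay within 7.35 to 7.55 on all 12 arrays.

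On the epithelial side, inducers and regulators of Pigr and the machinery that moves the receptor were examined. Of 27 regulators 22 were measured and 0 passed in any contrast. Usf1, whose product binds E-box letters such as those shown for Pigr, had levels of 5.80, 5.81 and 5.72 in wild-type quercetin, against 5.90, 5.99 and 6.05 in wild-type control. This difference of -0.20 ± 0.09 did not pass (limma, adjusted p = 0.416). Irf2, an interferon regulatory factor, had levels of 5.95, 6.03 and 6.06 in POR-null quercetin, against 6.29, 6.51 and 6.33 in POR-null control. This was a difference of -0.36 ± 0.09 (limma, adjusted p = 0.512). On the control diet Irf2 was higher in POR-null than in wild type by 0.30 ± 0.09 (limma, adjusted p = 0.337). Whether Irf2 and Pigr levels were linked was not tested.

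Of 18 genes of receptor sorting and transcytosis 17 were measured, and 0 passed in any contrast. Rab5a, a GTPase of early endosomes, differed by 0.24 ± 0.09 on quercetin in wild type, and Yes1, a Src family kinase that acts in transport of the receptor, by -0.19 ± 0.08, or by -0.033 with its probe sets averaged. Fcgrt, the neonatal Fc receptor that carries IgG rather than IgA, had levels of 8.72, 8.85 and 8.97 in POR-null quercetin, against 9.13, 9.30 and 9.41 in POR-null control. It differed by -0.43 ± 0.10 there (limma, adjusted p = 0.415) and by 0.33 ± 0.10 between POR-null and wild type on the control diet (limma, adjusted p = 0.338). Myo5b, the motor of recycling endosomes, differed by -0.36 ± 0.11 between the genotypes on the control diet (limma, adjusted p = 0.364).

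Array medians lay between 5.91 and 5.96. No single-symbol probe set read Por, so the genotype labels were not checked against the targeted gene. Epithelial markers, 14 of 14 measured, had mean levels of 11.29 to 11.35 in POR-null quercetin, 11.37 to 11.41 in POR-null control, 11.33 to 11.38 in wild-type quercetin and 11.34 to 11.43 in wild-type control. Segment markers were compared in the same groups as the members. Of 6 ileal segment genes, 6 were higher on quercetin in wild type (median 0.23) and 1 in POR-null (median -0.18), and of 9 proximal genes 0 were higher in wild type (median -0.35) and 7 in POR-null (median 0.32). The median interaction was -0.41 for the ileal and 0.86 for the proximal genes, and 0 passed. The mean ileal level lay between 9.37 and 9.57 in POR-null quercetin, 9.50 and 9.85 in POR-null control, 9.58 and 10.06 in wild-type quercetin, and 9.32 and 9.63 in wild-type control. The part of gut segment in the member differences was not tested. Red blood cell genes were near the array median or below it. The labels give no hybridisation or extraction batch, so batches were not compared.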

How the data were processed

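RNA from ileal epithelial scrapings of 12 pools, each of 3 mice, was hybridised to Affymetrix 430A arrays, 3 per group. The values the authors deposited are log2 levels, and MAS5 and RMA are named in the submitters' processing notes without a version or the step each was used for. The values were used without further normalization. The number of arrays limits the precision, since each difference rests on 3 arrays a group.

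Array controls (64 of 22690 probe sets) were left out. The platform annotation gave a single symbol to 20380 of the other 22626, several symbols to 691 and none to 1555, and gene IDs tied 20351 of the single-symbol ones to RefSeq's GRCm38.p6 gene table. All single-symbol probe sets of Igha, Jchain and Pigr were taken, and a gene with several was represented by its brightest (highest mean over 12 arrays). Group means were fitted over all arrays and probe sets with limma 3.58.1 in R 4.3.3 (eBayes, 8 residual and 5.588 prior degrees of freedom), with Benjamini-Hochberg adjustment over 22626 probe sets and a threshold of 0.05. It was tested on simulated data. Intervals are at 95%. Correlations had permutation p-values from 100000 resamples. Python 3.11.15 with pandas 2.3.3 was used for tables and matplotlib 3.10.9 for figures.

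The named genes were the members, single-symbol probe sets of other immunoglobulin chains, up to 4 genes with the smallest unadjusted p of each of 5 pathway and 12 marker lists in a contrast, and the 5 genes whose levels followed each member most closely. Members and lists were chosen with earlier results of these data known. The alternatives tried were quantile normalization, median centring, 2 filters on dim probe sets, a trended robust eBayes, array weights, a replicate block, fits of only the groups compared, averaging a gene's probe sets, a threshold of 0.1 for the pathway counts, and each array left out. Over all probe sets, same-numbered arrays of different groups deviated from their group means with correlations of -0.104 to 0.162. The numbers were therefore not taken as pairs.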

Additional observations from a re-analysis of the deposited data

Results flagged for a closer look

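Cd79b, which encodes a signalling subunit of the B cell receptor, had quercetin values that moved in opposite directions in the 2 genotypes. All POR-null quercetin arrays (6.78, 6.95 and 7.00) lay below all POR-null control arrays (7.45, 7.18 and 7.58). All wild-type quercetin arrays (7.54, 7.74 and 7.87) lay above all wild-type control arrays (6.75, 6.83 and 7.15). Of all probe sets, 5.33% had such a gap in wild type. The share with all POR-null quercetin arrays below control was not counted. The interaction was -1.30 ± 0.18 (log2, SE), and limma's adjusted p of 0.0917 did not pass the threshold. The same interaction was past the threshold with trend and robust variance, with the replicate block, and when any of 4 arrays was left out (POR-null control 2, wild-type quercetin 1, and replicates 1 and 3 of wild-type control). In the representative probe sets of Igha, Jchain and Pigr, the quercetin and control arrays overlapped in both genotypes.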

How the results depend on the processing

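No member passed limma's threshold under any alternative. The correlations over all probe sets do not support the replicate block as a pairing. Replicate 2 was nevertheless the lowest array of each group for Jchain. With the replicate block Igha in wild type differed by 0.67 (limma, adjusted p = 0.224). Under that setting Cd79b passed for quercetin in wild type (0.0177), between genotypes on quercetin (0.0287) and for the interaction (0.00774). With a trended robust eBayes Cd79b passed in the same comparisons (0.0221, 0.0485 and 0.0265) and Cd79a between genotypes on quercetin (0.0485). Without probe sets below the lower quartile Cd79b passed for quercetin in wild type (0.0459). Leaving out each array in turn gave -0.068 to 0.34 for Igha and -0.16 to 0.30 for Jchain between genotypes on quercetin, -0.36 to 0.10 for the Jchain interaction, -0.11 to 0.013 for Pigr between genotypes on quercetin, and 0 to 1 for the pathway genes that passed for quercetin in wild type. It also gave -0.24 to 0.20 for the interaction of Igha 1429381_x_at, -0.12 to 0.068 for Pigr 1450060_at on quercetin in POR-null, -0.075 to 0.115 for Pigr 1450060_at between genotypes on quercetin, and -0.20 to 0.27 for Igkv8-30 between genotypes on quercetin. Median centring gave -0.037 for the interaction of Igha 1429381_x_at and -0.02 for Pigr 1450060_at between genotypes on quercetin. With a gene's probe sets averaged, Ighm differed by -0.012 on quercetin in POR-null and Ssr4 by -0.0089 in wild type. The causes were not tested. The values of Igha, Jchain and Pigr that changed sign were all smaller than their SE. With 3 arrays a group, an exact permutation test of a single gene cannot go below 0.1.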

Other observations

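Some kappa light chain probe sets were annotated to several symbols and therefore not assigned to a gene. The 3 annotated to 5 symbols, which had the highest mean levels, differed by 0.28, 0.28 and 0.21 (log2) between quercetin and control in POR-null, and by 0.55, 0.38 and 0.49 in wild type. Between POR-null and wild type on quercetin they differed by -0.0067, -0.010 and -0.080. Of the dimmer kappa probe sets, each annotated to 2 or 3 symbols, some differed the other way. The 2 with negative values on quercetin in wild type differed by -0.040 and 0.050 in POR-null, and by -0.017 and -0.15 in wild type. None of these differences passed limma's test after adjustment over all probe sets.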
